A study of Homo sapiens with 4 samples.

Results

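The genes described here encode subunits and small partners of the sodium pump (*ATP1B1*, *ATP1B3*, *FXYD3* and *FXYD5*) and the 3 subunits of the epithelial sodium channel (*SCNN1A*, *SCNN1B* and *SCNN1G*). They are 7 of the 23287 gene symbols measured, were taken by symbol, and all 7 were found. The genes were chosen by their measured FPKM in R5020 and EtOH and by the PR binding sites at their loci, so these values are a description and carry no test. In T47D cells, a human breast cancer cell line, RNA-seq was performed after 10 nM of the synthetic progestin R5020 or after its vehicle ethanol (EtOH), each for 3 h, and the cells of both libraries had been kept in charcoal-stripped serum before the treatment. ChIP-seq for the progesterone receptor (PR) was done after 1 h of 10 nM R5020, in cells held in charcoal-treated serum for longer. There was 1 library per condition of 1 cell line, so the spread between cultures is unknown and every difference below compares these 2 RNA-seq libraries.

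The sodium pump, or Na+/K+-ATPase, exports sodium from the cell in exchange for potassium at the expense of ATP. It is built from a catalytic alpha subunit and a glycosylated beta subunit that carries the complex to the plasma membrane, and small single-span FXYD proteins attach to it and tune its transport. The epithelial sodium channel admits sodium at the apical surface of epithelia as a complex of alpha, beta and gamma subunits, and together with the basolateral pump it moves sodium across kidney, colon, lung and gland epithelia. Both are textbook targets of the corticoid hormones, whose receptors are close relatives of PR and bind very similar DNA elements.

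The expression unit was the FPKM, a fragment count corrected for transcript length and library size, summed over the RefSeq transcripts of a gene. A gene was retained when either library reached an FPKM of 1, which left 11018 genes. The log2 fold change compares R5020 with EtOH after 1 has been added to both FPKM values, and it is too small for weakly expressed genes. Depth was expressed in read equivalents, the coverage times the transcript length over the read length of 50 nt. Their sum over the transcripts came to 35151493 with EtOH and 36203604 with R5020. The paper reports more uniquely mapped reads for EtOH than for R5020, so this sum does not rank the libraries by sequencing depth. Of 8 luminal markers, 8 reached an FPKM of 1 with R5020 and 6 with EtOH, where *KRT8* and *KRT18* are listed at 0 with a failed estimate. A value of 0 is therefore called listed at 0 below. The other 6 luminal markers were all lower with R5020, among them *FOXA1* at 64.3 and 14.7, *GATA3* at 253 and 126, *ESR1* at 17.2 and 10.9 and *PGR*, the gene of PR, at 23.7 and 15.3. The 4 leukocyte and 3 endothelial markers stayed under 1 in both libraries, whereas *ACTA2* of the 4 basal or myoepithelial and *COL1A1* of the 4 fibroblast markers were above it. The summed FPKM of the fibroblast markers was 5.40 with EtOH and 3.47 with R5020, and that of the basal or myoepithelial markers 2.09 and 1.72. Both libraries are of a cell line, and whether any such cells were present was not tested. In bulk RNA, fewer cells of a type and less RNA per cell cannot be told apart.

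*ATP1B1*, the most widely used beta subunit of the pump, stood apart from the other members. Its FPKM was 44.3 with EtOH and 177 with R5020, so that it moved from rank 505 to rank 97 among all gene symbols. The 4.0-fold difference corresponds to a log2 fold change of 1.98, and only 92 of the 11018 retained genes had a higher one. It was the 1 member of the 5 retained that was at least 1.5-fold higher in R5020, a distance passed by 7.67% of all retained genes, and 0 members were 1.5-fold lower, against 4.14% of all retained genes. These background shares are printed for orientation, since the members were chosen with this contrast in view. Genes with a failed estimate were kept in these shares and among the 92, which include *KRT8* and *KRT18*.

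The gene is represented by a single transcript, NM_001677, on chromosome 1 (hg19, 169075947 to 169101960). The deposited FPKM interval ran from 43.3 to 46.7 in EtOH and from 174 to 180.3 in R5020, which leaves a ratio of at least 3.73 between the nearest bounds. The intervals reflect the estimation of 1 library and not the variation between cultures. The last 192 bases of the locus are shared with *NME7*, which has an FPKM of 8.25 in EtOH and is listed at 0 in R5020. Added together, an alternative chosen after seeing the data, both genes held 10350 read equivalents with EtOH and 35832 with R5020, a ratio of 3.46.

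The other beta subunit, *ATP1B3* on chromosome 3 (141595470 to 141645382), stood at an FPKM of 25.5 with EtOH and 28.2 with R5020. Its log2 fold change of 0.14 was below the threshold, and its FPKM intervals, 25.4 to 28.2 and 27.4 to 30.3, overlapped. As a result *ATP1B1* made up 63.5% of the FPKM of these beta subunits with EtOH and 86.3% with R5020. The ratio of *ATP1B1* to *ATP1B3* was 1.74 and 6.28, respectively. The remaining beta subunit genes, *ATP1B2* and *ATP1B4*, stayed under an FPKM of 1 in both libraries, at 0.238 and 0.187 for *ATP1B2* and at 0.0630 and 0.0841 for *ATP1B4*.

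**Figure D1:**
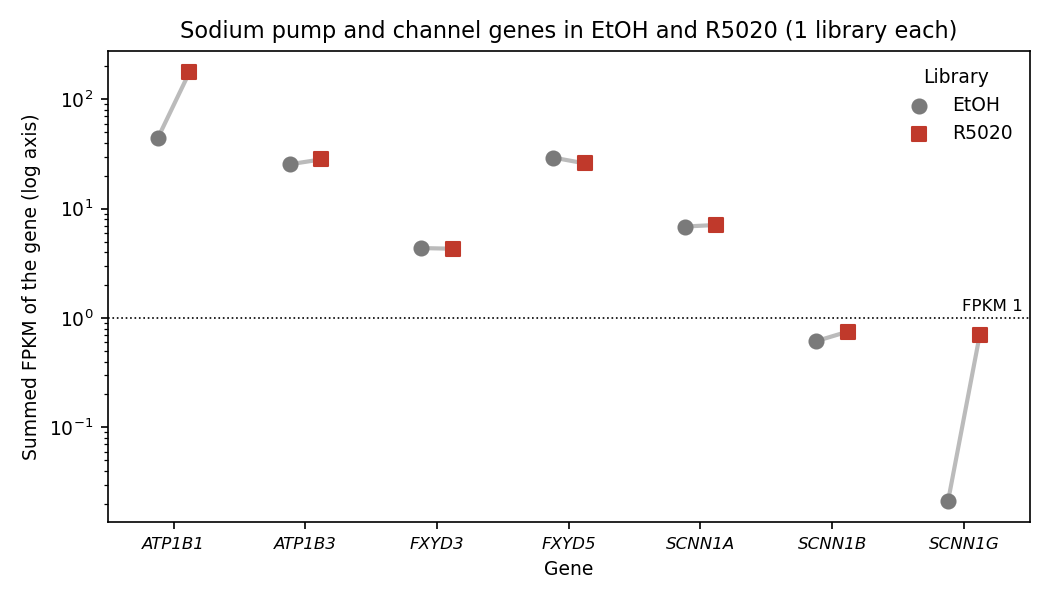
Summed FPKM per gene (log axis) in the EtOH library (grey circles) and the R5020 library (red squares), 1 library each, for the pump and channel genes. *ATP1B1* and *SCNN1G* are separated between the libraries, and *SCNN1B* and *SCNN1G* lie below the dotted line at an FPKM of 1 in both.

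Of the FXYD proteins, *FXYD5* (dysadherin), which also weakens cell adhesion, and *FXYD3* (Mat-8), which is common in breast cancers, were the expressed ones. *FXYD5* stood at an FPKM of 29.4 with EtOH and 26.0 with R5020, a log2 fold change of −0.17. The FPKM of *FXYD3* was 4.36 and 4.30, with a log2 fold change of −0.02. Neither approached the threshold, and *FXYD5* was 6.73 times as high as *FXYD3* in EtOH and 6.04 times in R5020. None of the other 5 FXYD genes was retained. *FXYD6* was at 0.307 and 0.357, and *FXYD1*, *FXYD2*, *FXYD4* and *FXYD7* are listed at 0 in both libraries.

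In the epithelial sodium channel the subunits differed in level and in change. *SCNN1A*, the alpha subunit, was the only one retained, with an FPKM of 6.87 with EtOH and 7.10 with R5020, a log2 fold change of 0.04. *SCNN1B*, the beta subunit, had an FPKM of 0.616 and 0.752, with intervals of 0.329 to 0.658 and 0.406 to 0.764 that overlapped. *SCNN1G*, the gamma subunit, stood at an FPKM of 0.0213 with EtOH and 0.698 with R5020, and so came to the level of the beta subunit in the R5020 library only. The ratio of *SCNN1B* to *SCNN1G* was 29.0 with EtOH and 1.08 with R5020.

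With respect to *SCNN1G* the size of the change depends on the scale. Its log2 fold change was 0.73 with the pseudocount of 1 and 5.04 without it, a ratio of 32.8. The deposited interval was 0 to 0.0465 in EtOH and 0.525 to 0.880 in R5020, so the ratio of the nearest bounds was 11.3. The coverage corresponded to 7.46 read equivalents with EtOH and 219 with R5020, against 9100 and 35832 for *ATP1B1*. Because the FPKM stayed under 1, *SCNN1G* did not enter the counts of retained genes. Without the FPKM filter it was the second member past 1.5-fold, next to 3.78% of all gene symbols.

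*SCNN1A* had the largest share of the channel's summed FPKM in both libraries, 91.5% with EtOH and 83.0% with R5020. The share of *SCNN1G* was 0.283% and 8.17%, and that of *SCNN1B* 8.20% and 8.80%. The delta subunit gene, *SCNN1D*, stood at an FPKM of 0.534 with EtOH and 0.270 with R5020. By FPKM the order of the members in EtOH was *ATP1B1*, *FXYD5*, *ATP1B3*, *SCNN1A*, *FXYD3*, *SCNN1B* and *SCNN1G*, and in R5020 *ATP1B3* and *FXYD5* changed places. The intervals of these 2 genes overlapped in each library.

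Among the 19 transcripts of the 7 genes, 10 are listed above 0 in at least 1 library, and each of those 10 has an FPKM inside its own interval. The R5020 interval lay above the EtOH interval for 2 of the 10, those of *ATP1B1* and *SCNN1G*, and below it for 1. Among all transcripts listed above 0 in at least 1 library, 21.1% had the R5020 interval above and 18.3% below, so intervals that do not overlap are common in these libraries.

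*SCNN1A* lies on the minus strand of chromosome 12 (6456009 to 6486523), and its 3 RefSeq transcripts differ in their start sites. NM_001159575, with the most upstream start, stood at an FPKM of 3.87 with EtOH and 3.74 with R5020. NM_001159576, which starts 2.13 kb downstream, had an FPKM of 3.0 and 3.36. The former held 56.4% of the gene's FPKM with EtOH and 52.7% with R5020, and its intervals of 3.36 to 4.39 and 3.21 to 4.25 overlapped. NM_001038, starting 1.62 kb from the most upstream one, is listed at 0 in both. The deposited estimates thus divide the FPKM of *SCNN1A* between 2 annotated starts, at levels that were close to each other. The transcripts share their end, so how the reads are divided among them is uncertain. Reads specific to a start were not examined.

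For *FXYD3*, with 8 transcripts from a common start on chromosome 19 (35606732 to 35615228), NM_005971 held 67.5% of the FPKM with EtOH and 77.9% with R5020. NM_001136010, a transcript with an earlier end, had an FPKM of 0.681 (interval 0.450 to 0.899) in EtOH and is listed at 0 in R5020 (upper bound 0.0401). That is the 1 transcript whose R5020 interval lay below the EtOH interval. The transcripts overlap over most of their length, so how the reads of the gene are divided among them is uncertain, and the gene sum was nearly equal in both libraries. For *FXYD5* on the same chromosome (35645625 to 35660788), 1 of the 4 transcripts, NM_014164, held the whole FPKM in both libraries.

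**Figure D2:**
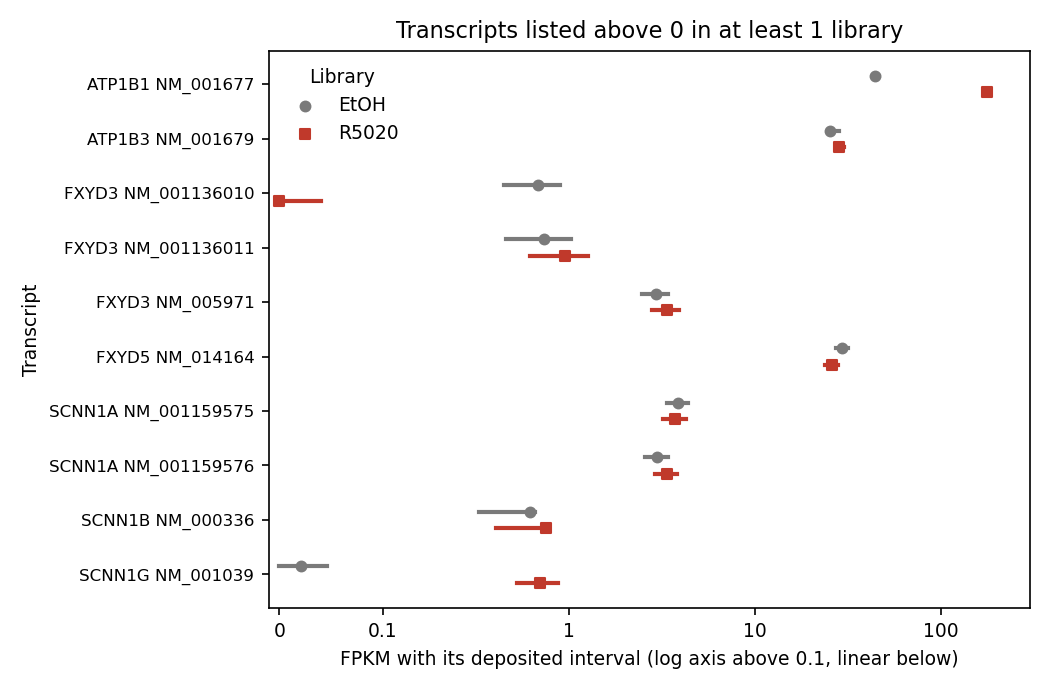
FPKM (points) and deposited interval (lines) of the 10 transcripts listed above 0 in at least 1 library, EtOH in grey and R5020 in red. The axis is logarithmic above 0.1 and linear below. The intervals are apart for *ATP1B1*, *SCNN1G* and the *FXYD3* transcript NM_001136010, and overlap for the other 7.

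PR binding sites were considered when their nearest edge was within 50 kb of a gene. Of the 11181 sites, 6 met this, and they belonged to 5 of the 7 genes. The share of genes with such a site was 45.7% over all gene symbols and 52.7% over the retained genes, so that a site at this distance is common. The score of a site is 10 times −log10 of the MACS p-value, so that a higher score is a stronger call, and its median over all sites was 74.5.

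*ATP1B1* had a pair of sites upstream of its start. The nearer one (chr1:169042591-169042924) was 33.0 kb away with a score of 123, rank 848 of all sites. The farther one (chr1:169039918-169040211) was 35.7 kb away with a score of 61.7. Both lie within the non-coding gene *LINC00970*, which is annotated on the opposite strand, and no site was within *ATP1B1* itself.

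The 300 bases around the midpoint of each *ATP1B1* site are given. These sites are the nearest ones to the member with the largest log2 fold change at the pseudocount of 1. With a pseudocount of 0.1 or none that of *SCNN1G* was larger (2.72 and 5.04). The farther site is 294 bases wide, so its window reaches slightly beyond it. Both windows are read on the plus strand of hg19. Capitals mark ACANNNTGT, the core shared by the palindromic elements of PR and the corticoid receptors, and TGTTCT, the hexamer that forms one arm of such an element.
ATP1B1 site 35.7 kb upstream, chr1:169039915-169040214: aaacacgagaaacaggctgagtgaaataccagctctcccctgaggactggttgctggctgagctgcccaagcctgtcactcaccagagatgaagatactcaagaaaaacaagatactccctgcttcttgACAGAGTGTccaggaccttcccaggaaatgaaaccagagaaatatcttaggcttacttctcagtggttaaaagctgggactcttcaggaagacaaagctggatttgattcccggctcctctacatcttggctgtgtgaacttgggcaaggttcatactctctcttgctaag
ATP1B1 site 33.0 kb upstream, chr1:169042608-169042907: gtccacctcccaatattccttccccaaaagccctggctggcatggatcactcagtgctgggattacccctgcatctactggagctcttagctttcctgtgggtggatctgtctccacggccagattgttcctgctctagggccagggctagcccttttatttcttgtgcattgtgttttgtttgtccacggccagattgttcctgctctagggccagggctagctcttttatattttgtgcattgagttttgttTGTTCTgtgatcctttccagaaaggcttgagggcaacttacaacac
The core in the farther site lies 17 bases from the midpoint of the site. The pattern ACANNNTGT matches it on both strands. The extended core has GN before ACANNNTGT and NC after it, and of these flanks only the one after it is present here. In the nearer site the hexamer lies 107 bases from the midpoint. This window also holds an exact repeat of 40 bases, whose copies begin 72 bases apart.

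Over all sites, 8.20% of 300-base windows held ACANNNTGT on either strand, against 7.41% of windows 5 kb to either side. For TGTTCT the shares were 17.7% and 19.1%, and for the extended core 1.89% and 0.466%. Of the 6 windows near the members, 1 held ACANNNTGT, 2 held TGTTCT and 0 held the extended core. The shorter motifs were therefore about as frequent outside the sites as inside them, and a match is only a description of the letters.

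*ATP1B3*, in contrast, had the site with the highest score of the 6, 141 (rank 554), on chr3:141595594-141596534. It overlaps the beginning of the gene, with its midpoint 0.594 kb after the start, in an intron. The level of *ATP1B3* was nearly equal in both libraries, as given above. The middle of the site is shown to compare its composition with that of the *ATP1B1* sites.
ATP1B3 site at the gene start, chr3:141595914-141596213: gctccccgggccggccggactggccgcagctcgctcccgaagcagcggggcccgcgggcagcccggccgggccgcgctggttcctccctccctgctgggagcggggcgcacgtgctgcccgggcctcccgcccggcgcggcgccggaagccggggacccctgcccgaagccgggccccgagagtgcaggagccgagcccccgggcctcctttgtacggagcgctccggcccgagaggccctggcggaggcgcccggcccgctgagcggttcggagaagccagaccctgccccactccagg
This window had a GC content of 80.3% and no match to the 3 motifs, whereas the windows upstream of *ATP1B1* had a GC content of 47.7% and 49.7%.

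The *FXYD3* and *FXYD5* loci are neighbours, and a single site between them (chr19:35630307-35630782, score 80.9) was counted for both. It lies 15.1 kb from *FXYD3* and 14.8 kb from *FXYD5*, within introns of *FXYD1* and *LGI4*. *FXYD1* itself is listed at 0 in both libraries.

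*SCNN1B* and *SCNN1G* lie on the same strand of chromosome 16, and the sites of this region fell in *SCNN1B* (23313591 to 23392620). One (chr16:23313381-23313865, score 75.6) covers the start of *SCNN1B*, with its midpoint 32 bases after the first base of the transcript. The other (chr16:23381533-23381995) is intronic, and its score of 50.3 was close to the lowest of all sites, 50. The part of the first window that precedes the transcript is given as the example of a site on the promoter of a member.
SCNN1B site, bases before the transcript, chr16:23313473-23313590: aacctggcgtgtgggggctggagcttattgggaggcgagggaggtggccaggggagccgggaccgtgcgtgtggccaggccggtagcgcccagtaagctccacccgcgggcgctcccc
It holds none of the 3 motifs, and the whole 300-base window had a GC content of 74.0%. The hexamer TGTTCT was found once in the intronic site, on the minus strand and 114 bases from its midpoint.

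No site was within 50 kb of *SCNN1G* (23194040 to 23228200), the member with the highest ratio between the libraries when no pseudocount is used. The nearest was the site at the start of *SCNN1B*, at 85.2 kb. *SCNN1A* had no site within 50 kb either, and its nearest was 145 kb away in an intron of *CD9*. Thus 2 of the 7 genes, *ATP1B3* and *SCNN1B*, were overlapped by a site, against 18.1% of all gene symbols, and neither reached the 1.5-fold threshold.

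**Figure D3:**
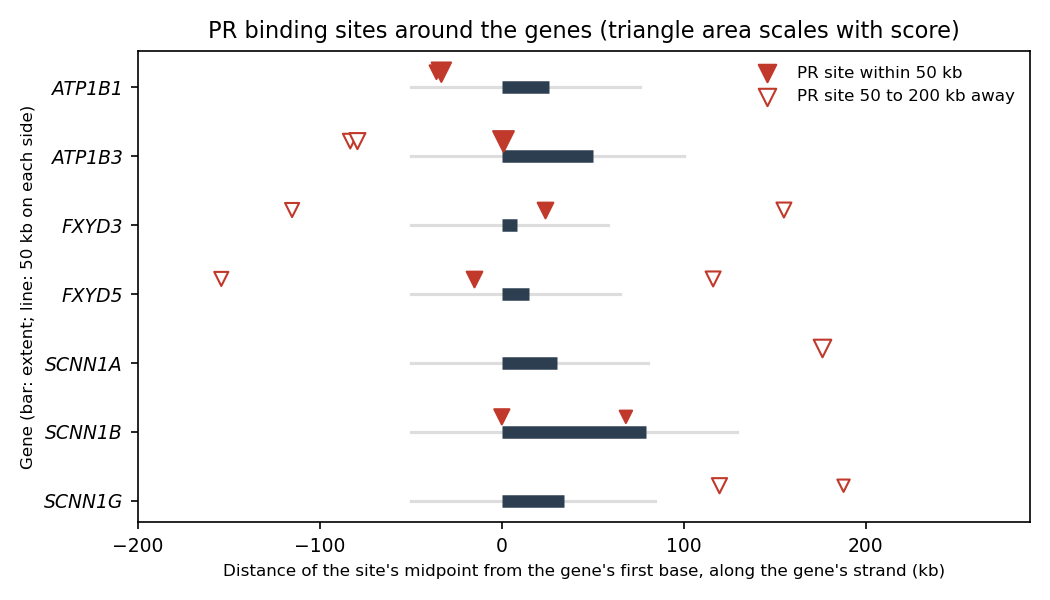
PR binding sites (triangles, area scaling with the score) by the distance in kb of their midpoint from the first base of each gene, along its strand. Dark bars are the genes, grey lines reach 50 kb to each side, filled triangles are sites within that distance and open ones lie up to 200 kb away. *SCNN1A* and *SCNN1G* have open triangles only.

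The 250 bases before the start of 5 of the 7 genes were found in the RefSeq promoter table (GRCh38.p14), all but those of *SCNN1A* and *SCNN1G*. None of the 5 held ACANNNTGT, its extended form or TGTTCT. Among 35116 promoters the shares with these motifs, in this order, were 4.61%, 0.327% and 12.4%. The GC content of the 5 ranged from 53.6% for *FXYD3* to 77.6% for *ATP1B1*.

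Next, genes related to the pump and the channel were examined from lists chosen with earlier results of these data known. The lists hold further subunits and FXYD genes, channel regulators, proteases and their inhibitors, corticoid receptors and ligand enzymes. They also hold other sodium transporters and the proton-potassium pumps, which are not regulators of the members. Of 37 such genes, 21 were retained, 8 were at least 1.5-fold higher in R5020 (38.1% of the retained, next to 7.67% of all retained genes) and 3 were at least 1.5-fold lower (14.3%, next to 4.14%). Their median log2 fold change was 0.34, and that of all retained genes 0.01. *SGK1* and *HSD11B2* passed the FPKM filter only through R5020, where they were higher, and *USP2* only through EtOH. With an FPKM of at least 1 required in both libraries, 6 list genes were higher and 2 were lower. The values are not independent of the choice of the lists.

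The list of channel regulators held 5 of the 8 higher genes, among them *STK39* of the WNK pathway. Of the 9 genes in this list, 8 were retained, 5 were higher and 1 was lower. *SGK1*, the corticoid-induced kinase that keeps the channel at the membrane, stood at an FPKM of 0.0388 with EtOH and 3.28 with R5020 (log2 fold change 2.04). *TSC22D3* (GILZ), which acts together with SGK1, had an FPKM of 3.52 and 18.7 (2.12). *STK39* (SPAK), a kinase of the WNK pathway that phosphorylates cation-chloride cotransporters, had an FPKM of 2.27 and 7.88 (1.44).

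The list also holds genes with the opposite action on the channel. *NEDD4L*, the ubiquitin ligase that removes it from the membrane, stood at an FPKM of 6.11 with EtOH and 12.6 with R5020 (log2 fold change 0.93), and its relative *NEDD4* 4.68 and 7.54 (0.59, just past the threshold and short of it after rescaling). *USP2*, a deubiquitinase that counteracts this removal, had an FPKM of 1.97 and 0.528 (−0.96). Genes with known actions in either direction were therefore among those that were higher.

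Proteases that cleave the channel, and their inhibitors, included no gene that was 1.5-fold higher. Of 6, 5 were retained and 2 were lower. *PRSS8* (prostasin), an activating protease, stood at an FPKM of 8.84 with EtOH and 4.50 with R5020 (log2 fold change −0.84), and *SPINT2*, an inhibitor of such proteases, 125 and 78.8 (−0.65). When only the highest transcript of a gene was used, *USP2* and *SPINT2* no longer passed the threshold, which left 1 of the 3 lower genes of all lists.

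Among the corticoid receptors and the enzymes that set their ligands, 3 of 4 were retained and 1 was higher. *HSD11B2*, which inactivates cortisol and so protects the mineralocorticoid receptor, stood at an FPKM of 0.851 with EtOH and 2.48 with R5020 (log2 fold change 0.91), and was under the threshold when the interval midpoint was used. The mineralocorticoid receptor *NR3C2* stood at 0.594 and 1.15 (0.43), and with a pseudocount of 0.1 or none it passed 1.5-fold, which made 9 higher genes in the lists. The glucocorticoid receptor *NR3C1* stood at 2.41 and 1.94 (−0.21).

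Of 7 other sodium transporters and their adaptor, 5 were retained, 2 were higher and 0 were lower. *SLC5A6*, the sodium-dependent vitamin transporter, stood at an FPKM of 16.2 with EtOH and 41.0 with R5020 (log2 fold change 1.29), and *SLC4A7*, a sodium bicarbonate cotransporter, 5.13 and 10.6 (0.93). None of the 3 genes of the related proton-potassium pumps was retained, and *ATP4B*, the highest of them, was at 0.0178 and 0.0374.

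**Figure D4:**
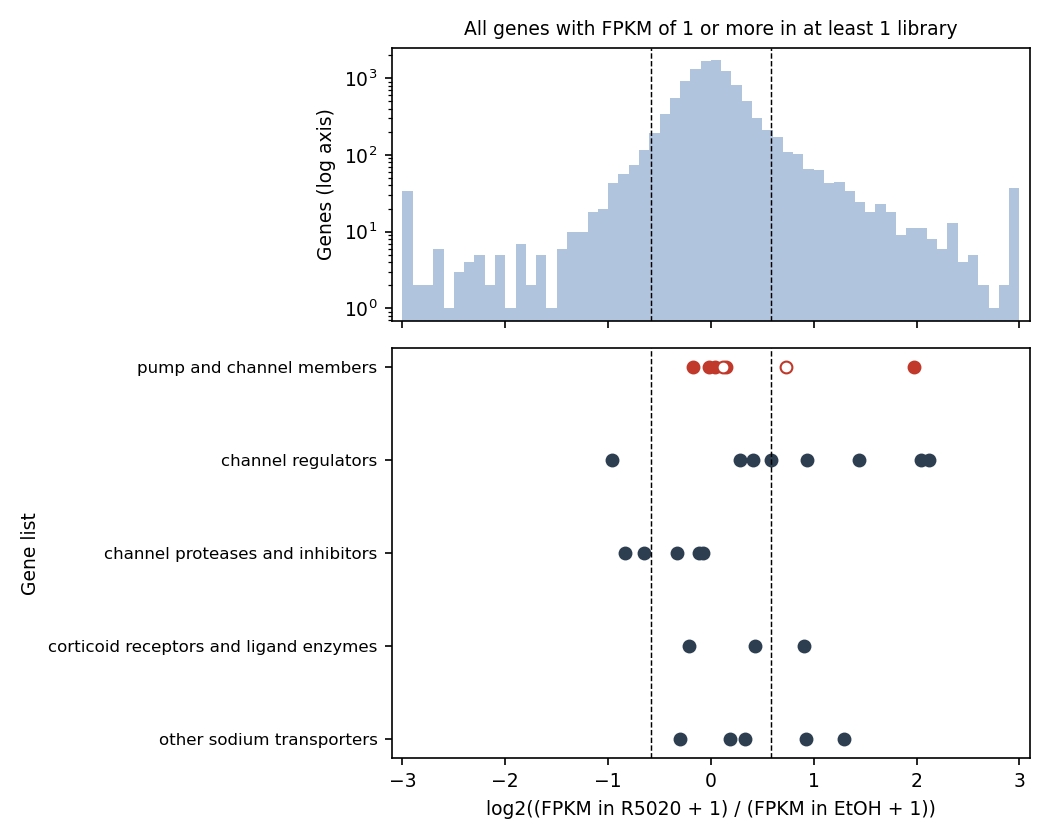
Top, number of genes (log axis) by log2 fold change of R5020 over EtOH for the 11018 retained genes, with values beyond 3 placed in the end bins. Bottom, the pump and channel members (red, open symbols for the 2 that were not retained) and the retained genes of each list (dark). Dashed lines mark 1.5-fold, which *ATP1B1* and *SCNN1G* exceed among the members.

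Within the lists, 16 of the 21 retained genes (76.2%) had a PR binding site within 50 kb, next to 52.7% of all retained genes. *SGK1*, *TSC22D3*, *STK39* and *SLC5A6*, which had the largest changes in the lists, had none. The share was not adjusted for gene length or for neighbouring genes that share a site.

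Finally, the retained genes closest to the members in both libraries were listed by Euclidean distance in log2(FPKM + 1), computed over 2 libraries only. Genes that were not retained were not searched, so closer ones may exist for *SCNN1G*, which was itself not retained. Among the nearest to *ATP1B1* were *RCAN1* (distance 0.34) and *GLUL* (0.57). For *SCNN1G* the nearest were *PRKAR1B* (0.25), *APLN* (0.25) and *LOC100506083* (0.28), and for *FXYD5* they were *ARPC5L* (0.02), *BSG* (0.03) and *RAB13* (0.03). The FPKM of *RCAN1* was 34.9 with EtOH and 183 with R5020. With only 2 values per gene, such a distance describes level and change and nothing else.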

How the data were processed

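The series holds 4 libraries of T47D cells, of which 3 were analysed (RNA-seq after R5020, RNA-seq after EtOH and PR ChIP-seq). The input DNA, the control of the authors' site calling, was not analysed here. According to their methods the authors mapped the paired RNA-seq reads with TopHat (hg19), kept those with a unique position and quantified transcripts with Cufflinks. Their methods name an Ensembl annotation for this step and their results name RefSeq. The deposited FPKM values carry RefSeq identifiers, with an interval, a status and a coverage signal. The coverage deposited by the authors was used only to express depth, as coverage times transcript length over 50 nt, and the lower and upper limits of the interval, other deposited values, served as bounds. For ChIP-seq the authors used Bowtie 1.1.2 and MACS with the input as control, and deposited a score per site.

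From these files the FPKM was summed per gene symbol, with a pseudocount of 1, a minimum FPKM of 1 in at least 1 library and a threshold of 1.5-fold, without the Cuffdiff p-value. With 1 library per condition no test was made. The FPKM holds no read counts, and the library totals behind it are the authors'. Sites were annotated by their midpoint with GENCODE 44 (GRCh37, equivalent to hg19). All 11178 sites on its named chromosomes end inside them. Motifs were searched on both strands. Printed sequence leaves out annotated exons of protein-coding genes and bases after a deposited transcript start of a member. Exons of non-coding genes were not looked up. The members and the gene lists were chosen with earlier results of these data known. Named genes were the members and the retained list genes past 1.5-fold (for a list without one, the gene with the highest FPKM). Also named were the 3 retained genes nearest to each of the 3 members with the largest absolute log2 fold change. Some genes are not reported here and were left out of the lists and their counts. *ATP1B2*, *ATP1B4*, *FXYD6*, the FXYD genes listed at 0, *NR3C1*, *NR3C2* and *NME7* were named after their values were seen. Alternatives were another pseudocount, filters, a rescaling, the highest transcript, the interval midpoint, other distances, sites with a score of at least 100 and other motif windows. The procedure was run on simulated data with large changes, little noise and no weakly expressed genes, which checks the code only. Python 3.11.15, pandas 2.3.3, numpy 2.4.6, pysam 0.24.0 and matplotlib 3.10.9 were used.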

Additional observations from a re-analysis of the deposited data

How the results depend on the processing

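The direction of *ATP1B1* and its place past 1.5-fold held under all alternatives tried, with log2 fold changes of 1.79 (reads added to those of *NME7*, added after seeing the data) to 2.0. When only the highest transcript of a gene was used, the log2 fold changes of *FXYD3* and *SCNN1A*, both far below the threshold, changed sign to 0.14 and −0.041, and the lower genes of the lists went from 3 to 1. Without the FPKM filter 2 members were at least 1.5-fold higher. At a threshold of 2-fold 4 list genes were higher and 0 lower. A distance of 10 kb left 3 sites and 2 members with a site, and a score of at least 100 left 2 sites and 2 members. In 200-base windows 0 of the 6 sites held TGTTCT. Apart from *ATP1B1*, these were 11 of 103 alternative values. The other 92 included the log2 fold change of *SCNN1G*, which kept its direction and was 5.04 without a pseudocount and 0.73 with the pseudocount of 1. The rescaling factor was 1.01. The low count behind *SCNN1G* with EtOH, 7.46 read equivalents, leaves its ratio imprecise. With a pseudocount of 0.1 or none *NR3C2* joined the higher list genes, which were then 9. No replicate could be left out and no paired analysis was possible because each condition has 1 library.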
